A study of Mus musculus with 6 samples.

Results

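RNA of titin, nebulin and the scaffold proteins of the sarcomere was followed in satellite cells (SCs), the stem cells of adult skeletal muscle. The cells came from mice with and without a conditional deletion of the gene for the transcription factor subunit NF-YA. The group holds 9 genes, chosen by symbol from the 35976 genes in the expression tables: Ttn, Neb, Nrap, Myom1, Myom2, Myom3, Mybpc1, Mybpc2 and Mybph. For Ttn (4 transcripts) and Neb (27 transcripts) the separate transcripts were examined as well, out of 106521 in all. NF-YAcKO mice carry floxed NF-YA alleles and a tamoxifen-inducible Cre under the control of Pax7, and the control NF-YAfl/fl mice carry the floxed alleles without Cre. Both genotypes received tamoxifen (20 mg/ml) at an age that the labels give as 5 to 7 weeks, and SCs were enriched from their muscles by depletion of other cell types, grown in growth medium and sequenced as total RNA, with 3 libraries per genotype. In this model recombination is limited to cells in which Pax7 is active, and it need not reach every one of them. Nothing in the labels says that the 3 libraries of a genotype are separate cultures, so that p-values describe the spread between these libraries.

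A sarcomere is built on long protein scaffolds. Titin is a giant elastic filament that spans from the Z-disc to the M-band and links the thick filament to both, while nebulin runs along the thin filament, and NRAP is a nebulin relative found in assembling myofibrils and at myotendinous junctions. Myomesins cross-link thick filaments and titin in the M-band, and the myosin-binding proteins C and H sit on the thick filament as regulators of the cross-bridges. In the muscle lineage these genes are switched on as myoblasts leave the cell cycle and form myofibrils.

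The libraries held between 26936230 and 41118984 expected counts, and 3 counts corresponded to 0.073 to 0.111 CPM (counts relative to the TMM-scaled library size, the unit of all levels below unless TPM is named). The entry for the deleted Nfya allele took 22.3%, 26.4% and 34.2% of the Nfya counts in the 3 NF-YAcKO libraries and 0% in NF-YAfl/fl, while the summed Nfya level did not differ (log2 fold change -0.06, SE 0.18, edgeR FDR 0.814). The NF-YAcKO libraries carried 836 to 852 CPM of Xist and 0.047 to 0.0957 CPM of the Y-linked Ddx3y, and the NF-YAfl/fl libraries 0.306 to 0.475 CPM of Xist and 80.9 to 88.6 CPM of Ddx3y, against a statement of male mice in the study's methods, so that sex and genotype cannot be told apart in any comparison below. The 8 myoblast and SC markers were all present, with a summed level of 1460 to 1662 CPM in NF-YAcKO against 2807 to 5328 CPM. Cdh15, Des and Myog were called lower, whereas the SC marker Pax7 was at 146, 165 and 201 CPM in NF-YAcKO against 73.5, 87.5 and 105 CPM (log2 fold change 0.94, edgeR FDR 0.00624, short of the fold threshold) and Vcam1 at 135, 91.1 and 90.4 CPM against 52.3, 58.9 and 63.6 CPM (0.86, edgeR FDR 0.0101). Macrophage markers summed to 128 to 246 CPM in NF-YAcKO and 5.5 to 14.7 CPM in NF-YAfl/fl, with 7 of 8 called higher. Schwann cell markers summed to 32.5 to 35.9 CPM against 8.03 to 11.7 CPM (4 of 5 called higher), fibroblast markers to 785 to 942 CPM against 717 to 1424 CPM (1 of 6 higher), endothelial markers to 13.1 to 18 CPM against 4.14 to 8.06 CPM (1 of 5 higher), and smooth muscle and pericyte markers to 879 to 1019 CPM against 1871 to 2243 CPM (1 of 5 lower). No marker of these lists stayed at or under 3 counts in every library. The summed macrophage, Schwann cell and endothelial markers lay higher, and the summed SC and smooth muscle markers lower, in every NF-YAcKO library than in every control library, while the fibroblast sums overlapped. Each sum is set mainly by its most abundant genes. In the SC list Des had a mean of 327 CPM in NF-YAcKO and 1392 CPM in NF-YAfl/fl, and Myog 20.3 against 999.5 CPM. Itga7 was lower without overlap but not called (log2 fold change -1.25, edgeR FDR 0.0116). Myf5 and Myod1 overlapped between the genotypes (log2 fold change 0.80 and -0.08). Acta2, the smooth muscle gene called lower, had a mean of 705 CPM in NF-YAcKO and 1616 CPM in NF-YAfl/fl. Rgs5 was lower without overlap, while Myh11, Cspg4 and Pdgfrb overlapped between the genotypes. In the fibroblast list Lum, called higher, and Dcn (edgeR FDR 0.0145) were higher in every NF-YAcKO library. Pdgfra, Ly6a, Col3a1 and Dpt overlapped. Kdr, the endothelial gene called higher, had a mean of 8.2 CPM in NF-YAcKO and 1.285 CPM in NF-YAfl/fl. Pecam1 and Tek were higher without overlap but not called, while Cdh5 and Emcn overlapped between the genotypes. The part of these markers in the results was not tested.

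In NF-YAcKO SCs the whole group fell. All 9 genes were called lower (edgeR's quasi-likelihood test, FDR under 0.01 and log2 fold change below -1), against 7.67% of the 17348 genes tested, and none was called higher, against 4.65%. The median log2 fold change of the 9 genes was -5.64, and that of all genes tested was -0.02. The 9 genes were chosen with earlier results of these data known. For each of the 9 genes, every NF-YAcKO library lay below every NF-YAfl/fl library, as was true of 26.2% of all genes tested. Of the 9, 8 had more than 10 counts in all 6 libraries, and Mybpc2 entered the test through its NF-YAfl/fl libraries alone. In RNA from mixed cultures, fewer cells that express a gene and less RNA per cell cannot be told apart.

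**Figure D1:**
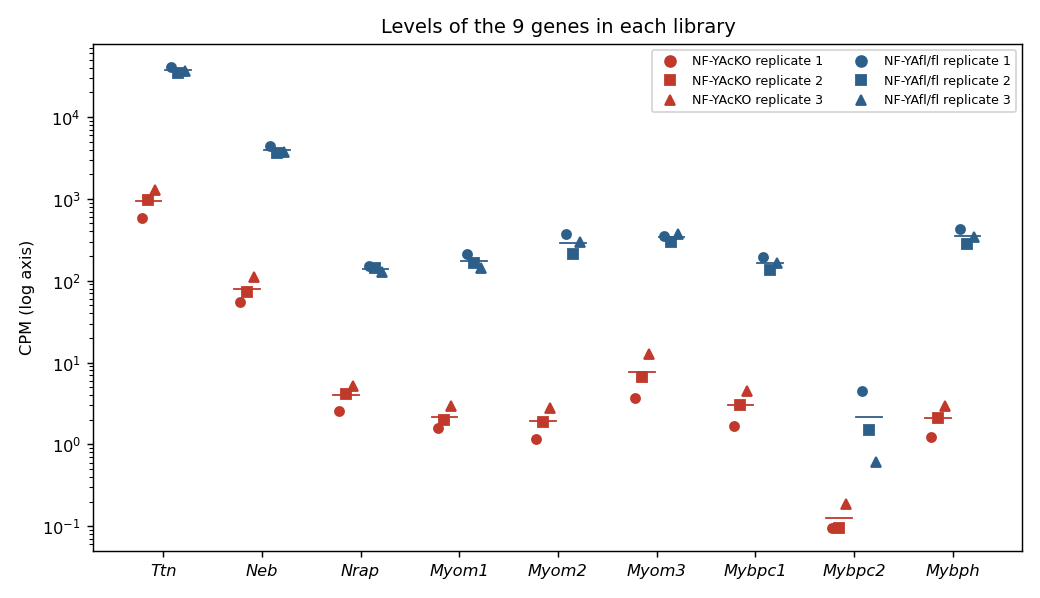
CPM of the 9 genes in each of the 6 libraries on a log axis; red symbols are NF-YAcKO, blue symbols NF-YAfl/fl, marker shapes the replicate number, and short lines the mean of 3 libraries. For Ttn the NF-YAcKO libraries sit between 575 and 1276 CPM and the NF-YAfl/fl libraries between 34616 and 40746 CPM, and for Mybpc2 the groups come closest, at 0.188 against 0.611 CPM.

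Ttn, which encodes titin, lies on chromosome 2 of GRCm38 from 76703980 to 76982547, on the minus strand. Its level was 575, 981 and 1276 CPM in the 3 NF-YAcKO libraries and 40746, 34616 and 36462 CPM in the 3 NF-YAfl/fl libraries. The control libraries lay close together (SD 3145, n = 3), and the highest NF-YAcKO library stayed 27.1-fold below the lowest of them. The fitted log2 fold change was -5.30 (SE 0.35, edgeR FDR 0.000172), a 39.5-fold lower level. In control SCs Ttn was the gene with the most counts in all 3 libraries, with 3.66% ± 0.26 (SD, n = 3) of all counts, and the 95% Wilson intervals of the single libraries together ran from 3.49% to 3.96%. In NF-YAcKO it took 0.0581%, 0.0988% and 0.132%, and stood in rank 199, 90 and 57 by counts. The place at the top reflects the length of the transcript as well as its level. Per length, at 477, 495 and 355 TPM, Ttn was in rank 179 to 199 of the control libraries, and at 6.89, 10.1 and 14.8 TPM in rank 5283 to 8101 of the NF-YAcKO libraries. The order of the control libraries also depends on the scale, since replicate 3 had the lowest TPM but not the lowest CPM.

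The Ttn promoter is shown because NF-Y, the complex to which NF-YA gives its DNA-binding subunit, recognizes CCAAT boxes. The 250 bases before the Ttn start (RefSeq, GRCm38.p6, chr2:76982548-76982797, minus strand, written 5′ to 3′) are printed with 2 CCAAT motifs and 1 MEF2 motif in capitals, the MEF2 motif being the first of the 3.

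Ttn: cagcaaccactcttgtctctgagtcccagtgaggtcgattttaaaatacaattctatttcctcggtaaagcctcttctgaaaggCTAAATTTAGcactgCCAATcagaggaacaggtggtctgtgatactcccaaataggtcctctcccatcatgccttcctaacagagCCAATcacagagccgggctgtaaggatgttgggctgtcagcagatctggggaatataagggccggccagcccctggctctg

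CCAAT was searched on both strands of the same 250-base window in the RefSeq table, which holds 7 of the 9 genes. Ttn was the only one of the 7 with a match, and 33.8% of the 32851 promoters in the table had one. The motifs of Ttn start 151 and 81 bases before the transcript. The MEF2 motif, known as a site of myogenic gene regulation, was present in Ttn and Myom3 (2 of 7, against 2.92% of all promoters). The E-box letters CAGCTG, of a kind read by MyoD and myogenin, were present in Mybph, Mybpc1 and Nrap (3 of 7, against 13% of all promoters), the general E-box CANNTG, which includes CAGCTG, in 7 of 7 (against 66.2%), and TATAAA in Mybph alone (against 12.4%). Myom3 (chr4:135759465-135759714, plus strand) and Mybph (chr1:134193198-134193447, plus strand) are printed beside it for comparison, with the MEF2 motif of Myom3, 35 bases before the start, and, in order, CAGCTG and TATAAA (on the opposite strand) of Mybph in capitals. These matches are letters in a window and not measured binding.

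Myom3: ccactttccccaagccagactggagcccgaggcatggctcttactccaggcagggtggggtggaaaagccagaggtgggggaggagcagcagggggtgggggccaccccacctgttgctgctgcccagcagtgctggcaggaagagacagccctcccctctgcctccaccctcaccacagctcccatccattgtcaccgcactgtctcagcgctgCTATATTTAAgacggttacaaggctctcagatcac

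Mybph: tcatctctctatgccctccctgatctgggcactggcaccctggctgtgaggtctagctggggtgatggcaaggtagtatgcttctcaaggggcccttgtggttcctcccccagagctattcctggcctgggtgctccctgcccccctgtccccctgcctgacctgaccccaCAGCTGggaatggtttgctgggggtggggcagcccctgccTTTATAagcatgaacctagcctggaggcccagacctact

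Neb (chromosome 2, 52136647 to 52378474, minus strand) encodes nebulin, which runs along the thin filament from the Z-disc. It was at 54.9, 72.7 and 110 CPM in NF-YAcKO and at 4451, 3623 and 3769 CPM in NF-YAfl/fl. The groups were separated by 32.9-fold at their nearest libraries, and the fitted log2 fold change was -5.64 (SE 0.31, edgeR FDR 8.86e-05), a 49.8-fold lower level. Neb took 0.363% to 0.432% of all counts in control SCs and 0.00554% to 0.0114% in NF-YAcKO. Relative to Ttn, Neb was slightly lower in NF-YAcKO. The ratio of Neb TPM to Ttn TPM was 0.401, 0.308 and 0.361 in NF-YAcKO and 0.458, 0.438 and 0.435 in NF-YAfl/fl, and no NF-YAcKO library reached the range of the controls. The log2 ratio differed by -0.32 (p = 0.1 in a two-sided exact permutation test, which cannot give less with 3 libraries against 3). The adjusted p was 0.117 over the 14 measures of proportion tested in this way. None of these 14 can pass 0.05 in this design.

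Nrap, the nebulin-related anchoring protein (chromosome 19, 56320035 to 56390037, minus strand), was at 2.55, 4.17 and 5.19 CPM in NF-YAcKO and at 149, 143 and 129 CPM in NF-YAfl/fl. Its log2 fold change of -5.13 (SE 0.27, edgeR FDR 7.27e-05) was close to that of Ttn, and its control libraries had the smallest relative spread of the 9 genes (coefficient of variation 7.33%). An antisense gene within Nrap, Gm17197, had at most 3 counts in an NF-YAcKO library and 15 to 22 counts in the control libraries, and was lower as well (log2 fold change -3.80, edgeR FDR 0.00146). Whether reads of the strands were told apart in the counting is not given in the sources used here.

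The 3 myomesins of the M-band were lower by different amounts. Myom1, the myomesin found in all striated muscle (chromosome 17, 71002633 to 71126856, plus strand), was at 1.59, 1.98 and 2.94 CPM in NF-YAcKO and at 212, 164 and 143 CPM in NF-YAfl/fl (log2 fold change -6.30, SE 0.29, edgeR FDR 5.72e-05). Myl12a, which overlaps Myom1 on the opposite strand, had a mean of 467 CPM in NF-YAcKO and 538 CPM in NF-YAfl/fl (log2 fold change -0.205, edgeR FDR 0.164). The expected counts of Myom1 were whole in every library. Myom2, the M-protein known from fast fibers (chromosome 8, 15057653 to 15133541, plus strand), was at 1.18, 1.86 and 2.75 CPM against 369, 214 and 294 CPM (log2 fold change -7.22, SE 0.38, edgeR FDR 8.19e-05). Myom3, known from a subset of fibers (chromosome 4, 135759715 to 135815564, plus strand), was at 3.67, 6.61 and 12.7 CPM against 354, 295 and 376 CPM (log2 fold change -5.47, SE 0.47, edgeR FDR 0.000433). Per length, Myom3 had the highest TPM of the 3 in each NF-YAcKO library, and in CPM its NF-YAcKO replicates covered the widest range of the 9 genes, 3.47-fold.

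Shares of the summed myomesin TPM put these differences on a scale within each library. Myom2 made up 19.1%, 18.1% and 15.4% of the sum in NF-YAcKO and 40.9%, 33.1% and 37.6% in NF-YAfl/fl. Myom3 made up 56.5%, 63.4% and 68.6% against 36.8%, 42.8% and 44.9%. For both genes all NF-YAcKO libraries lay on one side of all control libraries (p = 0.1 in the two-sided exact permutation test, its minimum here, adjusted p = 0.117). The Myom1 share was 19.7% ± 4.32 (SD, n = 3) in NF-YAcKO and 21.3% ± 3.44 in NF-YAfl/fl, and its libraries overlapped (p = 0.8 in the exact permutation test). In the small myomesin RNA pool of the NF-YAcKO libraries the mean share differed by -19.7 percentage points for Myom2 and by 21.3 for Myom3. The shares within a library depend on each other, so that these differences are not separate results. Myom2 had 37, 77 and 117 expected counts in the NF-YAcKO libraries.

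**Figure D2:**
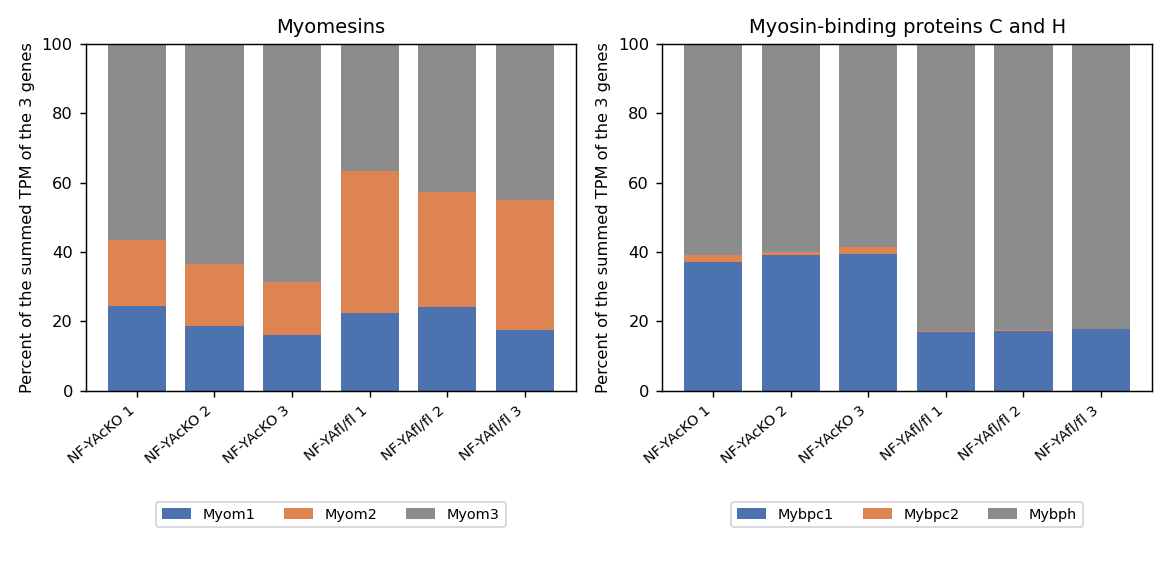
Stacked bars of each gene's percent of the summed TPM of its family in each of the 6 libraries, for the 3 myomesins (left) and for Mybpc1, Mybpc2 and Mybph (right). The Myom2 part is 15.4% to 19.1% in NF-YAcKO and 33.1% to 40.9% in NF-YAfl/fl, and the Mybph part is 58.6% to 60.9% against 82.1% to 82.7%.

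Of the myosin-binding proteins, Mybph had the largest log2 fold change of the 9 genes, within 1 SE of that of Myom2. Mybph, a short relative of the C proteins (chromosome 1, 134193448 to 134201232, plus strand), was at 1.24, 2.12 and 2.96 CPM in NF-YAcKO and at 422, 283 and 340 CPM in NF-YAfl/fl (log2 fold change -7.35, SE 0.36, edgeR FDR 6.16e-05), a 163-fold lower level. Mybpc1, the slow-type myosin-binding protein C (chromosome 10, 88518279 to 88605152, minus strand), was at 1.69, 3.07 and 4.46 CPM against 195, 133 and 165 CPM (log2 fold change -5.72, SE 0.37, edgeR FDR 0.000161). Mybph shares its locus with Adora1, an adenosine receptor gene on the opposite strand, and both have expected counts that are not whole. Adora1 had at most 12.1 counts in an NF-YAcKO library and 484 to 829 counts in the control libraries (log2 fold change -7.02, edgeR FDR 0.000369), so that the split of reads between them is an estimate.

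Mybpc2, the fast-type myosin-binding protein C (chromosome 7, 44501699 to 44524656, minus strand), was barely expressed and gives the weakest result of the group. It had 3, 4.2 and 8 expected counts in NF-YAcKO and 117, 49.9 and 18 in NF-YAfl/fl, or 0.0957, 0.0965 and 0.188 CPM against 4.47, 1.49 and 0.611 CPM. The groups did not overlap, but the control libraries spread over a 7.32-fold range. The log2 fold change was -4.04 (SE 0.83, edgeR FDR 0.00967), just inside the threshold. The call was lost under 10 of 16 alternatives, with an FDR between 4.72e-06 and 0.0924 over all of them. Leaving out NF-YAcKO replicate 1, 2 or 3 gave an FDR of 0.0403, 0.0484 and 0.0325, and leaving out NF-YAfl/fl replicate 1 or 2 an FDR of 0.0157 and 0.0163, while the call held without NF-YAfl/fl replicate 3. Without Mybpc2 the other 8 genes were called under all 16 alternatives.

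Within this family the shares of the summed TPM differed between the genotypes with little spread among replicates. Mybph made up 60.9%, 60% and 58.6% in NF-YAcKO and 82.7%, 82.5% and 82.1% in NF-YAfl/fl. Mybpc1 made up 37%, 39% and 39.5% against 16.9%, 17.3% and 17.8%. Mybpc2 was a minor part, at 1.68% ± 0.61 (SD, n = 3) against 0.231% ± 0.18, from TPM values of at most 0.06 in NF-YAcKO. For each of the 3 genes the shares of the groups were fully separated (p = 0.1 by exact permutation, two-sided and at its minimum, adjusted p = 0.117). Computed from expected counts instead, the Mybph share was 40% against 67.7%.

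On the per-length TPM scale the order of the 9 genes was not the same in the genotypes. In NF-YAfl/fl the order of the means was Ttn (442 TPM), Mybph (229), Neb (197), Myom3 (74.1), Myom2 (67.3), Mybpc1 (47.9), Myom1 (39), Nrap (30.3) and Mybpc2 (0.707). Neighbours in that order held in all 3 libraries, except Myom3 above Myom2, which held in 2, although the ranges over libraries overlapped for Mybph and Neb and for each pair of neighbours from Myom3 to Nrap. In NF-YAcKO the order was Ttn (10.6 TPM), Neb (3.73), Myom3 (1.63), Mybph (1.31), Mybpc1 (0.857), Nrap (0.807), Myom1 (0.463), Myom2 (0.423) and Mybpc2 (0.0367). Mybph stood in the second place in controls and in the fourth in NF-YAcKO, and Myom2 in the fifth and the eighth. Here neighbours from Neb to Myom2 overlapped in range, and Myom3 was above Mybph, and Mybpc1 above Nrap, in 2 of 3 libraries.

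Within NF-YAcKO the low residual levels varied together. Replicate 3 had the highest and replicate 1 the lowest CPM for 9 of 9 genes, an order shown by 17.4% of all genes tested and by 32.3% of the 1331 genes called lower. For Mybpc2, however, replicates 1 and 2 were nearly equal (0.0957 and 0.0965 CPM, from 3 and 4.2 counts). In TPM their order was reversed (0.03 and 0.02). The range from replicate 1 to replicate 3 was 1.84-fold for Myom1, 2.22-fold for Ttn and 3.47-fold for Myom3. Myog, encoding the differentiation factor myogenin, followed the same order at 10.7, 18.7 and 31.4 CPM, and so did the share of the deleted Nfya entry given above. In the same libraries the macrophage markers Adgre1, Csf1r, Ptprc, Itgam and Cd14 declined from replicate 1 to replicate 3. Adgre1, for instance, was at 9.02, 6.59 and 2.75 CPM. Lyz2 (190, 203 and 101 CPM), Cd68 (6.89, 7.79 and 5.55 CPM) and C1qa (2.23, 4.51 and 1.93 CPM) were highest in replicate 2 and lowest in replicate 3. In the control libraries replicate 1 was the highest for 8 of 9 genes and replicate 3 for Myom3, whereas Myog was the highest in replicate 3 (965, 584 and 1450 CPM). Whether any of these measures bears on the level of the scaffold genes was not tested.

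**Figure D3:**
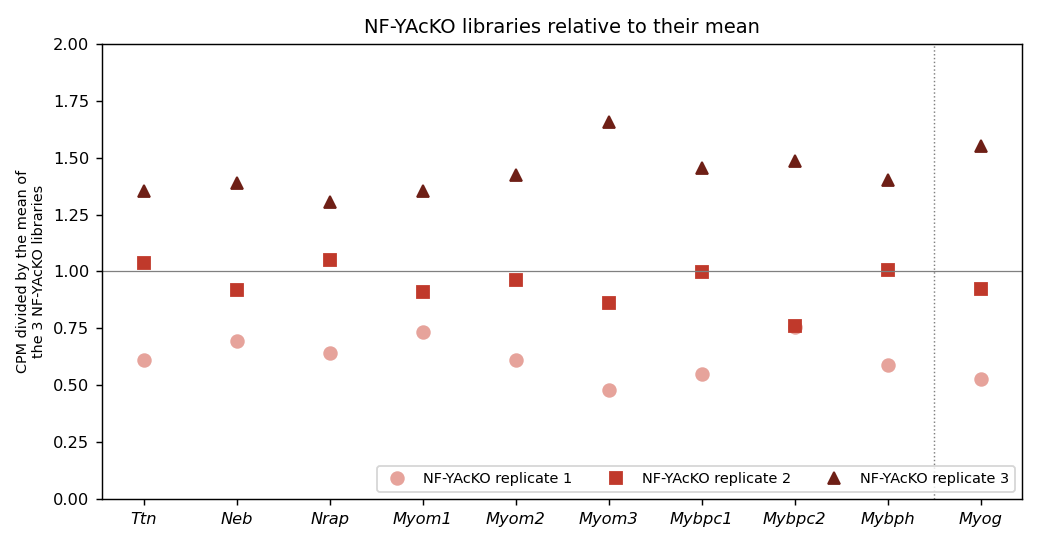
CPM of each of the 9 genes and of Myog in the 3 NF-YAcKO libraries, divided by the mean of the 3 (grey line at 1). Replicate 3 is at the top and replicate 1 at the bottom for every gene shown, and for Mybpc2 replicates 1 and 2 (0.0957 and 0.0965 CPM) overlie.

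Titin transcripts were examined next, since titin is known for splice forms that differ in the elastic I-band. N2-A (NM_011652.3) is the form of skeletal muscle and N2-B (NM_028004.2) a shorter form typical of heart. In GENCODE M21 on GRCm38, N2-A holds a run of 121 exons (exons 46 to 166, 22251 bases, chr2:76821116-76903626) that N2-B skips, and N2-B holds an exon of 2646 bases (exon 45, chr2:76907308-76909953) that N2-A lacks. The junction at the start of that run tells the forms apart, and is shown as 30 bases on each side of the splice, lower case for the shared exon and capitals for the exon that follows, read 5′ to 3′ from the GENCODE transcripts.

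N2-A: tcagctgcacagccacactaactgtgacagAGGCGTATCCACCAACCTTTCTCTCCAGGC

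N2-B: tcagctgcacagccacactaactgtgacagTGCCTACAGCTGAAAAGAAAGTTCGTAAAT

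All 4 Ttn transcripts were at lower levels in NF-YAcKO, and 3 of them were called, N2-A with a log2 fold change of -5.46 (SE 0.37, edgeR FDR 0.00318 over 45367 transcripts), N2-B with -5.00 (SE 0.35, FDR 0.00342) and XM_011239438.1 with -5.92 (SE 0.39, FDR 0.00293). Of the 27 Neb transcripts, 21 were tested and 4 called lower, of which XM_006497755.1, at 0 counts in NF-YAcKO, entered the test through the NF-YAfl/fl libraries alone. The background of such calls was 1.01% of all transcripts tested, and none of the Ttn and Neb transcripts was called higher. These counts rest on all 6 libraries, since the 7 calls became 4 without NF-YAcKO replicate 1, 1 without NF-YAfl/fl replicate 2 or 3, and 0 in edgeR without NF-YAcKO replicate 2, NF-YAcKO replicate 3 or NF-YAfl/fl replicate 1. In the fits without calls, 20 of 25, 21 of 24 and 19 of 25 transcripts tested were lower at an unadjusted p under 0.05. Over all transcripts, these 3 fits called 0 of 43738, 0 of 43568 and 12 of 43981 transcripts lower, against 456 of 45367 with all libraries. No other tool was run on transcripts.

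The proportions of the Ttn transcripts differed by a few percentage points. N2-A and N2-B share 186 exons, so that these percentages are estimates by the authors' software. Reads over the junctions shown above were not counted. N2-A made up 42.7%, 39.3% and 44.8% of Ttn in NF-YAcKO and 47.7%, 48.3% and 50.7% in NF-YAfl/fl. N2-B made up 39.1%, 42% and 38.6% against 34.4%, 34.5% and 31%. The mean difference of NF-YAcKO from NF-YAfl/fl was -6.63 percentage points for N2-A and 6.56 for N2-B. XM_011239438.1, a longer form of 104361 nt, made up 9.77% ± 1.40 (SD, n = 3) against 15.4% ± 1.30. Each of these 3 percentages was fully separated between the groups (p = 0.1 by exact permutation, two-sided and at its minimum, adjusted p = 0.117). However, XM_011239438.1 reached the mean of 10% needed for naming in NF-YAfl/fl alone, so that its choice used the difference that was tested. XM_017317139.1, the longest at 107190 nt, is named after its values were seen, without a test, and made up 8.11% ± 0.81 in NF-YAcKO and 2.39% ± 1.69 in NF-YAfl/fl, where replicate 3 (4.34%) stood above the others (1.38% and 1.45%). Rbm20, a splicing factor known for its action on titin, is a gene of the partner list, was picked for mention after its values were seen, and was at 33, 45.3 and 42.4 CPM in NF-YAcKO against 94, 80.4 and 147 CPM in NF-YAfl/fl (log2 fold change -1.41, SE 0.24, edgeR FDR 0.00507).

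**Figure D4:**
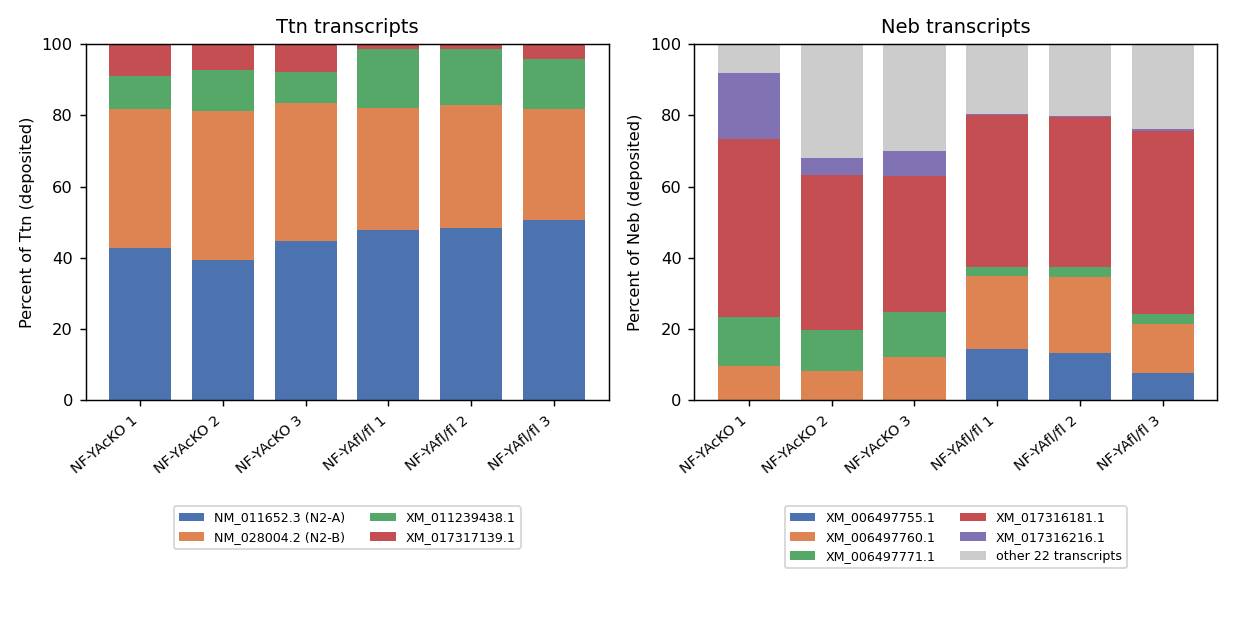
Stacked bars of the deposited percent that each transcript makes up of Ttn (left, all 4 transcripts) and Neb (right, 5 transcripts and the other 22 together) in each of the 6 libraries. N2-A is at 39.3% to 44.8% in NF-YAcKO and 47.7% to 50.7% in NF-YAfl/fl, and XM_006497755.1 of Neb is at 0% in NF-YAcKO.

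For Neb, the main transcript XM_017316181.1 (22998 nt) took a like part in both genotypes, 50.1%, 43.6% and 38.2% in NF-YAcKO and 42.8%, 42% and 51.4% in NF-YAfl/fl (p = 0.8 by exact permutation, two-sided). The other large transcripts did not. XM_006497755.1 (22905 nt) made up 14.4%, 13.3% and 7.53% of Neb in NF-YAfl/fl and had 0 expected counts in all 3 NF-YAcKO libraries, in which Neb as a whole had 1721 to 4685 counts. XM_006497760.1 (22812 nt) made up 9.64%, 8.31% and 12.1% in NF-YAcKO against 20.5%, 21.3% and 13.9%. In the opposite direction, XM_006497771.1 (22317 nt) made up 13.7%, 11.4% and 12.7% against 2.5%, 2.72% and 2.89%. Each of these 3 percentages was again fully separated (exact permutation p = 0.1, at its minimum, adjusted p = 0.117). However, XM_006497755.1 reached the mean of 10% needed for naming in NF-YAfl/fl alone, and XM_006497771.1 in NF-YAcKO alone. Their choice thus used the difference that was tested, and their separation is no independent result. The 5 shortest Neb transcripts (up to 22317 nt), a group chosen after the values were seen and given without a test, together made up 32.3%, 24.3% and 19.6% in NF-YAcKO and 2.76%, 3.07% and 3.34% in NF-YAfl/fl. Among them XM_017316216.1, the shortest at 22110 nt, varied the most, with 18.4%, 4.59% and 6.86% in NF-YAcKO. The Neb transcripts share most of their exons, so that these percentages are estimates by the authors' software from the reads that tell them apart.

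Genes related to the group by sequence or domains were compared from a list of 12, of which 10 were tested. Of these 10, 7 were called lower, against 7.67% of the 17348 genes tested, and none higher, against 4.65%. The median log2 fold change was -2.34, and the list was chosen with earlier results of these data known. Of the 7, 1 gene, Myot (the Z-disc protein myotilin), had more than 10 counts in NF-YAfl/fl libraries alone. Large changes in genes with means over 10 CPM were those of Igfn1, an immunoglobulin-domain protein of muscle (log2 fold change -9.15, SE 0.43), and Mypn, encoding the Z-disc protein myopalladin (-6.62, SE 0.39). Mypn was at 0.383, 1.06 and 1.15 CPM in NF-YAcKO and at 90.1, 67.6 and 105 CPM in NF-YAfl/fl. Of the other called genes, 4 had log2 fold changes between -7.06 and -1.55. Among the genes not called, Nebl, the nebulin relative nebulette known from heart and non-muscle cells, was at 5.33, 5.53 and 5.22 CPM in NF-YAcKO and at 1.26, 2.88 and 0.814 CPM in NF-YAfl/fl (log2 fold change 1.68, SE 0.44, edgeR FDR 0.0221). Lasp1, the widely expressed short member of the nebulin family, was at 154 to 163 CPM against 71.2 to 164 CPM (log2 fold change 0.28, edgeR FDR 0.484), and Mylk, the smooth muscle and non-muscle myosin light chain kinase, at 9.21 to 10.4 CPM against 6.65 to 31.1 CPM (log2 fold change -1.08, edgeR FDR 0.124). Of the untested genes, Mybpc3, the cardiac myosin-binding protein C, did not exceed 0.159 CPM in any library, and Mybphl had 0 counts in all of them.

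**Figure D5:**
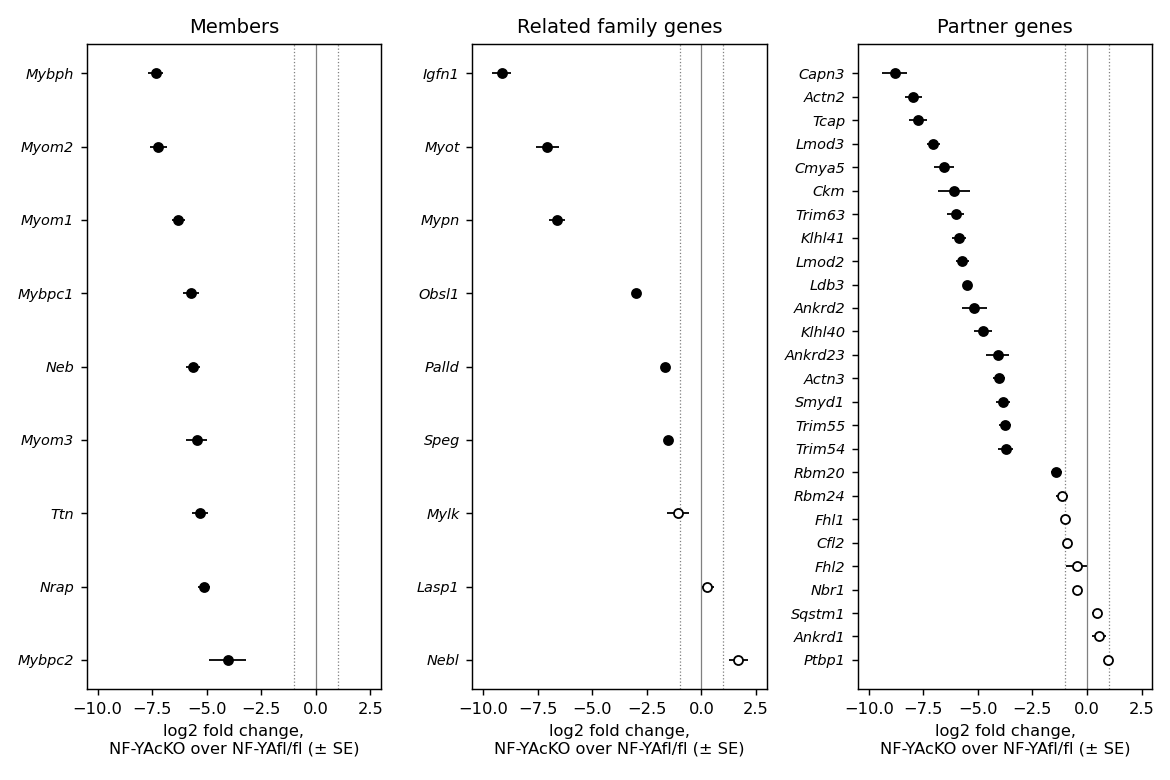
Log2 fold change of NF-YAcKO over NF-YAfl/fl with its SE for the 9 genes (left), 9 tested related genes (middle) and the 26 partner genes (right); filled points were called, open points were not, and dotted lines mark -1 and 1. The 9 genes lie between -7.35 and -4.04, whereas the related genes run from -9.15 to 1.68 and the partner genes from -8.81 to 0.95.

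Partners of the scaffolds, which bind them, turn them over, assemble them or splice their transcripts, were compared from a list of 26 genes, all tested. Of these, 18 were called lower, against 7.67% of the 17348 genes tested, and none higher, against 4.65%. The median log2 fold change was -4.07, and the list was chosen with earlier results of these data known. Of the 18, 3 entered the test through the NF-YAfl/fl libraries alone, namely Capn3, Tcap and Ankrd2, with no more than 10 counts in any NF-YAcKO library. Among the called genes with the largest fitted changes were Actn2, the Z-disc actinin (log2 fold change -7.96, SE 0.37), Capn3, the muscle calpain that binds titin (-8.81, SE 0.58, from 2, 5 and 7 counts in NF-YAcKO and 2203, 1866 and 835 in NF-YAfl/fl), and Tcap, encoding telethonin, which caps titin at the Z-disc (-7.76, SE 0.42, from 2, 5 and 10 counts against 1150, 959 and 733). Actn2 was at 0.797, 1.79 and 2.14 CPM in NF-YAcKO and at 436, 330 and 432 CPM in NF-YAfl/fl. The remaining 8 genes were not called. Fhl1, a LIM-domain protein, was at 45.3 to 59.3 CPM against 97.1 to 111 CPM and missed the fold threshold (log2 fold change -0.997, edgeR FDR 0.0017), and Cfl2, the muscle cofilin, was at 123 to 126 CPM against 186 to 268 CPM (-0.91, edgeR FDR 0.00348). Rbm24, a splicing factor of muscle, had a log2 fold change of -1.14 (edgeR FDR 0.0193). The autophagy receptor Nbr1, a titin kinase ligand, was at -0.46 (edgeR FDR 0.0283), and its partner Sqstm1 at 0.46 (edgeR FDR 0.133). Fhl2, which binds titin in heart, was at -0.48 (edgeR FDR 0.468), and the stretch-responsive Ankrd1 at 0.55 (edgeR FDR 0.191), at 854 to 977 CPM in NF-YAcKO. Ptbp1, a splicing repressor that declines in muscle differentiation, was at 336 to 359 CPM against 151 to 209 CPM (log2 fold change 0.95, edgeR FDR 0.00234), just short of the fold threshold.

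The genes most like Ttn and Neb in their profile over the 6 libraries were ranked by the Euclidean distance between centred log2 CPM values, among tested genes outside the group whose mean reached 10 CPM. Nearest to Ttn were Klhl31 (distance 0.38), Filip1 (0.421), Myo18b (0.437), Ryr1 (0.492) and Srl (0.568). Nearest to Neb were Lmod2 (distance 0.347), Klhl41 (0.45), Tmem182 (0.485), Pgam2 (0.516) and Klhl31 (0.552). Among them Ryr1, the calcium release channel of the sarcoplasmic reticulum, was at a mean of 27.9 CPM in NF-YAcKO and 896 CPM in NF-YAfl/fl, and Klhl31 at 2.88 against 121 CPM. Lmod2 and Klhl41, both known for their work on thin filaments, are also in the partner list. Since the difference between genotypes dominates each profile, a small distance mainly says that the log2 fold changes were alike, between -5.37 and -5.00 for the 5 genes near Ttn and between -5.86 and -5.37 for those near Neb.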

How the data were processed

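RNA-seq of SCs from 3 NF-YAcKO and 3 NF-YAfl/fl libraries was analysed. Stranded libraries were aligned by the authors with Bowtie2 (mouse transcriptome, build mm10), followed by RSEM quantification, as the labels and methods state. Deposited expected counts carry no normalization, and reads shared between transcripts or overlapping genes are split by likelihood. The deposited TPM values are scaled to effective length and an equal sum per library, and the deposited percent gives each transcript's part of its gene's TPM. 

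Expected counts were rounded, and features exceeding 10 counts in 2 or more libraries entered the tests (17348 genes, 45367 transcripts) with edgeR 4.0.16 in R 4.3.3 (TMM, quasi-likelihood, genotype as the only factor, Benjamini-Hochberg FDR). The thresholds, FDR under 0.01 and a log2 fold change beyond 1, follow the methods. SE is the log2 fold change divided by the square root of F. Proportions were compared with exact permutation tests over libraries. On simulated data with the real means and library sizes, 50 of 50 genes lowered by 4 on the log2 scale and 19 of 49 such transcripts were called, and 2 of 16795 unchanged genes. Of those lowered by 2, 44 of 50 genes and 3 of 50 transcripts were called. Only features with a mean above 50 counts were changed, and the error of splitting reads between transcripts was not simulated. The simulated transcripts were a random part of those tested, with 13506 unchanged, so that their FDR was adjusted over fewer features. Wilson intervals cover counting error only.

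The members and lists were chosen with earlier results of these data known. Named from each list were the 3 called genes with the largest change and a mean of at least 10 CPM and all genes not called (1 gene is left out here), and transcripts with a mean of at least 10% in either genotype. A pseudocount of 0.01 CPM was used for profile distances. Promoters are from RefSeq (GRCm38.p6; Neb and Myom2 were not matched), loci and exons from GENCODE M21. Alternatives were DESeq2 1.42.0, other scalings and filters, limma 3.58.1 on log2(TPM + 1) and log2(TPM + 0.1), the looser FDR of 0.05, edgeR's glmTreat (threshold 1 on the log2 scale), a replicate block and leaving out each library.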

Additional observations from a re-analysis of the deposited data

How the results depend on the processing

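Over 16 alternatives each, Ttn, Neb, Nrap, Myom1, Myom2, Myom3, Mybpc1 and Mybph stayed below NF-YAfl/fl and called, and the count of members called was 8 or 9. The related genes called lower were 6 to 8 and the partner genes 15 to 20. The 7 Ttn and Neb transcripts called became 15 at an FDR under 0.05 and 0 to 4 with a library left out. Deviations from the group means had correlations of 0.224, -0.116 and 0.0524 for libraries with the same number in both genotypes. For libraries with unlike numbers they ran from -0.194 to 0.172. These values do not settle whether the libraries were paired, and the main fit did not take the numbers as pairs. With the replicate block 8 members, 7 related genes, 19 partner genes and 0 Ttn and Neb transcripts were called (0 of all 45367 transcripts, 19 of Ttn and Neb lower at an unadjusted p under 0.05, edgeR), and the paired difference was 21.3 percentage points for the Myom3 share, with an exact sign-flip p of 0.25, the smallest that 3 pairs allow. The Myom1 share and the percentage of XM_017316181.1, whose libraries overlapped between genotypes, changed sign with 1 library left out (-4.01 to 0.189 points for Myom1, the highest without NF-YAcKO replicate 3, and -4.46 to 1.58 points for the transcript, 1.46 without NF-YAcKO replicate 3 and 1.58 without NF-YAfl/fl replicate 3). The cause of these changes was not tested, beyond the smaller number of libraries in each fit. With 3 libraries per genotype the exact tests cannot pass 0.05. Depth was low for Mybpc2, with at most 8 counts in an NF-YAcKO library, and its part in the lost calls was not tested.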
